A study of Caenorhabditis elegans
Pristionchus pacificus with 6 samples.

Results

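The cuticle collagen genes of the col family were described in RNA-seq of dissected intestine from adult Caenorhabditis elegans hermaphrodites. The set was defined by identifier, as every row of the deposited count table from WBGene00000600 to WBGene00000750. Of these 151 identifiers the table holds 143, out of 73268 rows in all, and all of them lie in the first block of rows, which was taken as C. elegans. The definition of the set gives WBGene00000608 as col-19, and the table itself pairs no identifier with a symbol. RefSeq's C. elegans gene table (WBcel235) lists 156 protein-coding genes and 3 pseudogenes with col symbols, but none of the count table's identifiers occur in it, so members are given by identifier and no member's sequence is shown.

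The comparison was between 2 strains, with 3 libraries each, numbered 1 to 3 in both. CDK-2gut(-) animals carried cdk-2::ZF::GFP, zif-1(gk117) and the transgene asp-1p::vhhGFP4::zif-1, in which the asp-1 promoter drives the vhhGFP4 nanobody, a binder of GFP, joined to ZIF-1, which brings proteins to the degradation machinery. The series describes the intestine of this strain as reduced in ploidy. Control animals carried cdk-2::ZF::GFP and zif-1(gk117) without that transgene, so the tagged kinase gene and the zif-1 allele were shared by both strains. Anterior intestines were dissected 72 hours after egg lay at 20 °C and lysates were pooled, and each library received an equal amount of Pristionchus pacificus intestine lysate, dissected at 96 hours, as a spike-in. How many animals a pool held is not known here.

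The cuticle is the extracellular coat of the worm and is built largely of collagens encoded by a large gene family. These collagens are made chiefly by the hypodermis, the epidermal layer under the cuticle, and many are transcribed in pulses around each moult. The col-19 gene is known for its activity in the adult stage. The intestine is not a tissue known for making cuticle. Marker lists for intestine, other hypodermal genes, muscle and germline were kept by symbol and could not be read from a table of identifiers, nor could cdk-2 or zif-1. RNA of other tissue carried over in dissection therefore could not be measured here, and its part in the values below was not tested.

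The CDK-2gut(-) libraries held 11273570 to 15874554 C. elegans counts and the control libraries 9432973 to 10665065. Values are given as CPM, counts per 1000000 C. elegans counts of the same library, a unit that carries no scaling for gene length, so values of different members are not compared as levels. Multi-mapping reads are absent from the deposited counts. Counts of members with near-identical copies are uncertain for that reason, and so are those of members that overlap a neighbouring gene, since the use of strand in counting is not stated. Whether the 3 libraries of a strain stem from separate cultures is not stated, and p-values then cover only the spread among these libraries, part or all of it perhaps technical.

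Most of the set was silent or nearly so in dissected intestine. Of 143 members, 50 had 0 counts in every library, and a further 41 had 1 to 9 counts summed over the 6 libraries. A count of 0 allows up to 3 counts, which is 0.189 to 0.266 CPM in a CDK-2gut(-) library and 0.281 to 0.318 CPM in a control library. At least 10 counts in 3 or more libraries were found for 32 members, or 22.4% of the set, against 18.1% of all C. elegans rows. The latter base takes in every C. elegans row whatever its gene type, which could not be read from identifiers. These percentages therefore do not show whether members were detected more or less often than other protein-coding genes. There were 21 members with at least 10 counts in all 3 CDK-2gut(-) libraries, 20 with that many in all 3 control libraries and 15 with that many in all 6.

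The number of members with at least 10 counts differed by library within each strain. It was 41, 28 and 24 in CDK-2gut(-) libraries 1, 2 and 3, against 32 in control library 2, 29 in control library 1 and 21 in control library 3. The deepest library, CDK-2gut(-) library 1, had the most such members, but within control the order did not follow depth. With counts scaled to the smallest C. elegans total they were 33, 24 and 24 in CDK-2gut(-) libraries 1, 2 and 3, and 29, 31 and 21 in control libraries 1, 2 and 3.

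Summed over all members, collagen counts were a small part of each library and varied more between libraries of a strain than between strains. The set took 0.0560%, 0.0175% and 0.0225% of C. elegans counts in CDK-2gut(-) libraries 1, 2 and 3, against 0.0672%, 0.0603% and 0.0195% in control libraries 1, 2 and 3. CDK-2gut(-) library 1 stood nearest to control libraries 1 and 2, CDK-2gut(-) libraries 2 and 3 stood near control library 3, and the strains overlapped. The mean share was 0.0320% ± 0.0209 (SD, n = 3) in CDK-2gut(-) and 0.0490% ± 0.0257 (SD, n = 3) in control. The exact (Clopper-Pearson) 95% binomial interval of a library was at most 0.0655% to 0.0689%, for control library 1, so counting error was small beside the spread. Such intervals and the limits on counts of 0 cover counting error only.

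Within a replicate number the share of CDK-2gut(-) stood at 0.833 times control for number 1, 0.290 times for number 2 and 1.15 times for number 3. The direction thus differed between numbers. Set against the spike-in, the members summed to 0.290%, 0.0807% and 0.0626% of the P. pacificus counts in CDK-2gut(-) libraries 1, 2 and 3, against 0.360%, 0.272% and 0.0542% in control libraries 1, 2 and 3. The same libraries were high on this scale. In bulk RNA, fewer cells that express a gene and less of its RNA per cell cannot be told apart.

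**Figure D1:**
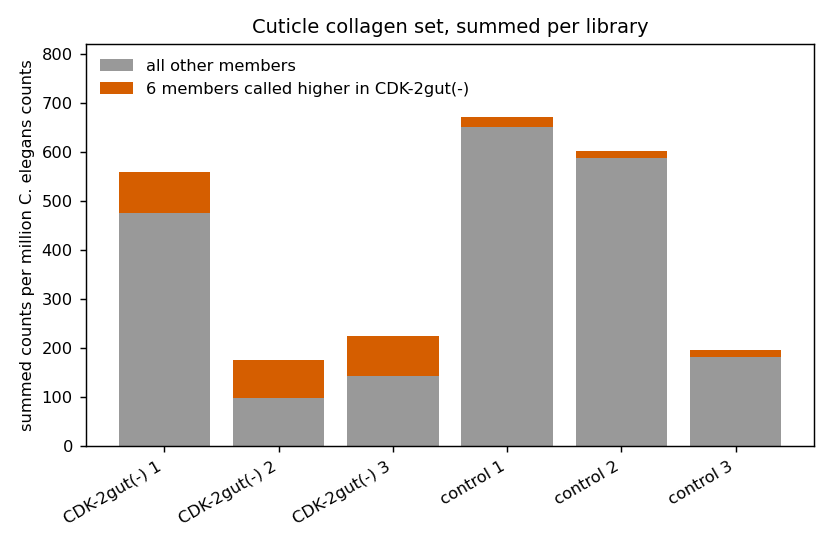
Summed CPM of all 143 members in each library (y axis, counts per 1000000 C. elegans counts), with the 6 members called higher in CDK-2gut(-) in orange and all other members in grey. The orange part is 77.4 to 84.0 CPM in the 3 CDK-2gut(-) libraries and 14.4 to 20.5 CPM in the 3 control libraries, while the grey part spans 97.6 to 476 CPM in CDK-2gut(-) and 181 to 651 CPM in control.

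The sum hid members that behaved differently. All 32 members with at least 10 counts in 3 libraries also passed the filter on low counts used for testing, and no other member did. In the composition fit, which scales by the trimmed mean of M-values (TMM) over C. elegans genes, 6 of these 32 rose in CDK-2gut(-), or 18.8%, where 11.8% of the 8309 C. elegans rows tested rose (edgeR quasi-likelihood test, adjusted p under 0.05 over all rows tested). Of these 6, 4 (WBGene00000639, WBGene00000645, WBGene00000647 and WBGene00000712) had at least 10 counts in the 3 CDK-2gut(-) libraries and in no control library, so they entered the test through the strain in which they were high, and the share that rose is no support for the set. A further 4 fell, or 12.5%, where 6.84% of all rows tested fell. Of these 4, WBGene00000723 had at least 10 counts in the 3 control libraries and in no CDK-2gut(-) library. It thus entered the test through the strain in which it was high, and this share is no support for the set either. The remaining 22 did not pass the test, with log2 folds of -3.66 to 1.02, of which 21 were below 0.

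The median log2 fold of the 32 tested members was -1.13, against 0.10 for all rows tested, and 78.1% of the members had a log2 fold below 0, against 44.1% of all rows. Placing the 1 member that had no control counts at its lower bound could not change the median of -1.13, because that bound also lies above it. The same 6 members rose when the fit was scaled to the spike-in, where 16.4% of all rows rose. Of the 4 that fell, 2 also fell with the spike-in, where 2.47% of all rows fell. Spike-in scaling raised log2 folds by a median of 0.45 over all rows, which put the members' median at -0.62 and that of all rows at 0.55. With single libraries left out, the members' spike-in median was 0.03, -0.35 and -0.90 without control replicates 1, 2 and 3. It was -1.93, -0.29 and -0.19 without CDK-2gut(-) replicates 1, 2 and 3, so its sign was not kept throughout. The spike-in median of all rows was 0.66, 0.79 and 0.34 without control replicates 1, 2 and 3. Without CDK-2gut(-) replicates 1, 2 and 3 it was 0.34, 0.56 and 0.70, so the members' median was the lower one each time. Scaling to plain C. elegans totals, as the CPM values are, raised log2 folds by a median of 0.41 over all rows. The members' median was then -0.66. The members passed the filter because they were detected, so these medians describe the detected members and not all 143.

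**Figure D2:**
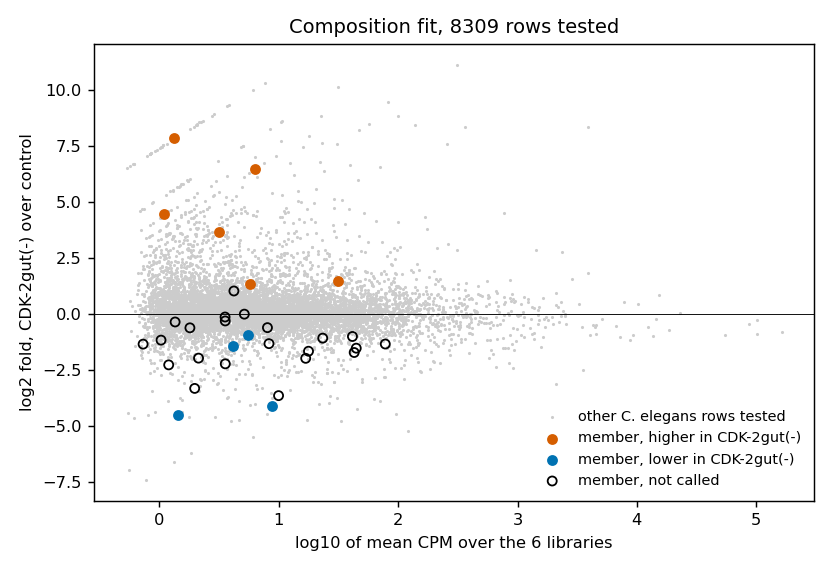
Log2 fold of CDK-2gut(-) over control in the composition fit (y axis) against the log10 of the mean CPM over the 6 libraries (x axis) for the 8309 rows tested. Members are drawn in orange where higher, blue where lower and as open circles where not called. The 6 higher members lie at log2 folds of 1.34 to 7.84, while the 32 tested members together have a median of -1.13.

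Of the members that rose, WBGene00000693 had the highest counts. It stood at 54.3, 43.2 and 51.0 CPM in CDK-2gut(-) libraries 1, 2 and 3, against 16.6, 12.7 and 11.3 CPM in control libraries 1, 2 and 3. The lowest CDK-2gut(-) library lay well above the highest control library. Its mean was 49.5 ± 5.71 CPM in CDK-2gut(-) and 13.5 ± 2.80 CPM in control (SD, n = 3 each), a ratio of 3.66. The log2 fold was 1.46 ± 0.21 (SE) in the composition fit (edgeR adjusted p = 0.00228) and 1.89 with the spike-in (edgeR adjusted p = 0.00346). It was called in every one of the 15 alternatives run for the composition fit and the 12 for the spike-in fit.

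WBGene00000608, the identifier given as col-19, rose to 7.43, 9.38 and 9.85 CPM in CDK-2gut(-) libraries 1, 2 and 3, against 3.18, 2.25 and 2.49 CPM in control libraries 1, 2 and 3. The strains did not overlap, and libraries of each strain lay close together. Its log2 fold was 1.34 ± 0.32 (SE; edgeR adjusted p = 0.0217), and 1.76 with the spike-in (edgeR adjusted p = 0.0137). The composition call was lost without any single library other than CDK-2gut(-) replicate 1 or control replicate 3, with adjusted p-values from 0.0603 to 0.111, and the log2 fold was at least 1.02 in all 15 alternatives. With the spike-in it was lost without CDK-2gut(-) replicate 2 (edgeR adjusted p = 0.0850) and with plain P. pacificus totals (edgeR adjusted p = 0.143).

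WBGene00000712 was nearly absent from control intestine. It had 13.2, 12.4 and 12.1 CPM in CDK-2gut(-) libraries 1, 2 and 3, from 210, 156 and 136 counts, against 2, 1 and 0 counts in control libraries 1, 2 and 3. The 3 CDK-2gut(-) libraries agreed closely, at 12.6 ± 0.599 CPM (SD, n = 3). Pooled over libraries, the ratio was 127, with a 95% counting interval of 43.2 to 618 that rests on 3 control counts (edgeR adjusted p = 0.000158). This member too was called in all 15 composition alternatives and all 12 spike-in alternatives.

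A further 3 members rose from few or no control counts. WBGene00000639 had 6.17, 6.997 and 4.61 CPM in CDK-2gut(-) libraries 1, 2 and 3, against 0.318, 0 and 0.697 CPM in control libraries 1, 2 and 3. Its log2 fold was 3.65 ± 0.81 (SE; edgeR adjusted p = 0.0167), and it rests on 10 control counts. WBGene00000647 had 24, 32 and 26 counts in CDK-2gut(-) libraries 1, 2 and 3, against 1, 1 and 0 in control libraries 1, 2 and 3. Its strains thus did not overlap, at 1.51 to 2.54 CPM in CDK-2gut(-) and at most 0.106 CPM in control. The pooled ratio was 31.1 with a 95% counting interval of 8.34 to 261 (edgeR adjusted p = 0.00754).

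WBGene00000645 had 22, 36 and 42 counts in CDK-2gut(-) libraries 1, 2 and 3, which is 1.39, 2.86 and 3.73 CPM, against 0 counts in all 3 control libraries. It was at least 8.88-fold higher in CDK-2gut(-) if each control library is given a floor of 3 counts (edgeR adjusted p = 0.00810). Within CDK-2gut(-) it was lowest in library 1, as were WBGene00000608 and WBGene00000647. The composition call of WBGene00000639 was lost without control replicate 1 and without any 1 of the CDK-2gut(-) libraries, with adjusted p-values of 0.0537 to 0.0982. Those of WBGene00000645 and WBGene00000647 were lost without CDK-2gut(-) replicate 3, at edgeR adjusted p = 0.0501 and 0.0510.

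**Figure D3:**
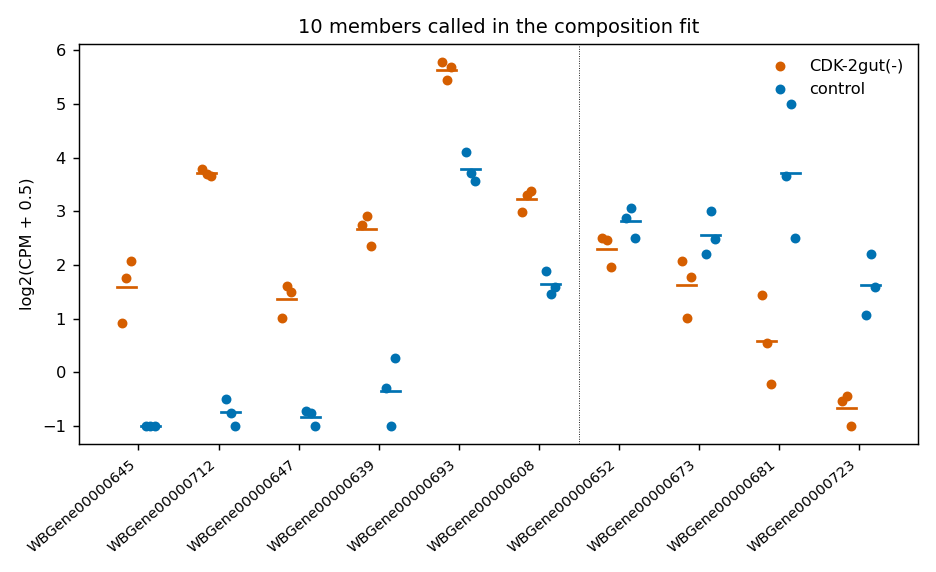
The 10 members called in the composition fit, with log2(CPM + 0.5) of each library on the y axis, CDK-2gut(-) in orange and control in blue, 3 points per strain and a bar at their mean. The 6 members left of the dotted line rose and the 4 right of it fell; in none of the 10 do the strains overlap.

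The strongest fall was that of WBGene00000723, with 3, 3 and 0 counts in CDK-2gut(-) libraries 1, 2 and 3, against 15, 44 and 25 counts in control libraries 1, 2 and 3. In CPM it stood at no more than 0.239 in CDK-2gut(-) and at 1.59 to 4.13 in control. Its log2 fold was -4.52 ± 0.78 (SE; edgeR adjusted p = 0.00527) and rests on 6 counts in CDK-2gut(-). On the spike-in scale the log2 fold was -4.02 (edgeR adjusted p = 0.0144). This was the member that fell in the most alternatives, 14 of 15 for the composition fit. The spike-in call was lost without CDK-2gut(-) replicate 1 or 2, at edgeR adjusted p = 0.0521 and 0.0541.

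WBGene00000681 fell to 2.20, 0.954 and 0.355 CPM in CDK-2gut(-) libraries 1, 2 and 3, against 12.1, 31.6 and 5.18 CPM in control libraries 1, 2 and 3. No CDK-2gut(-) library reached the lowest control, although the controls spread widely. Its log2 fold was -4.13 ± 0.80 (SE; edgeR adjusted p = 0.0156), and -3.67 with the spike-in (edgeR adjusted p = 0.0354). The composition call was lost without CDK-2gut(-) replicate 2 (edgeR adjusted p = 0.0789). The spike-in call was lost without control replicate 1, CDK-2gut(-) replicate 2 or CDK-2gut(-) replicate 3, at edgeR adjusted p = 0.0759, 0.143 and 0.0733.

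The other two falls were small and depended on the scaling. WBGene00000673 stood at 3.72, 1.51 and 2.93 CPM in CDK-2gut(-) libraries 1, 2 and 3, against 4.13, 7.50 and 5.08 CPM in control libraries 1, 2 and 3. WBGene00000652 stood at 5.17, 5.01 and 3.37 CPM in CDK-2gut(-) libraries 1, 2 and 3, against 6.78, 7.88 and 5.18 CPM in control libraries 1, 2 and 3. The strains did not overlap in either member, but the nearest libraries of the 2 strains were close. The composition log2 folds were -1.43 ± 0.40 and -0.96 ± 0.27 (SE; edgeR adjusted p = 0.0389 and 0.0402). Neither was called with plain C. elegans totals (adjusted p = 0.131 and 0.257) or with the spike-in (edgeR adjusted p = 0.233 and 0.481). Both calls were lost without control replicate 1 and without any 1 of the CDK-2gut(-) libraries, and that of WBGene00000673 also without control replicate 2, with adjusted p-values from 0.0505 to 0.161.

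These 10 were all of the tested members whose strains did not overlap in CPM. Separation upward was seen for 6 members, where 39.0% of all rows tested were separated upward, and separation downward for 4, where 6.50% of all rows were. Of these, 4 of the 6 and WBGene00000723 had entered the test through the strain in which they were high. On the CPM scale most rows were shifted upward in CDK-2gut(-), as the median log2 fold of 0.51 with plain totals shows. The 6 members that rose summed to 84.0, 77.4 and 83.6 CPM in CDK-2gut(-) libraries 1, 2 and 3, against 20.5, 15.1 and 14.4 CPM in control libraries 1, 2 and 3. They made up 15.01%, 44.2% and 37.1% of all member counts in CDK-2gut(-) libraries 1, 2 and 3, against 3.05%, 2.51% and 7.39% in control libraries 1, 2 and 3. These 6 were chosen by the test, so the sums are a description.

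Most members with high counts followed another pattern, high in 1 or 2 libraries of each strain. Of the 10 members with the highest mean CPM, 8 were not called, and all 8 overlapped between strains. WBGene00000713, the member with the highest counts, stood at 100.1, 20.4 and 40.7 CPM in CDK-2gut(-) libraries 1, 2 and 3, against 133, 128 and 45.3 CPM in control libraries 1, 2 and 3. CDK-2gut(-) library 1 was near the 2 high controls, and the other CDK-2gut(-) libraries were near or below control library 3. Its log2 fold was -1.35 ± 0.64 (SE; edgeR adjusted p = 0.232).

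WBGene00000716 had 66.1, 9.06 and 10.7 CPM in CDK-2gut(-) libraries 1, 2 and 3, against 97.0, 68.4 and 16.1 CPM in control libraries 1, 2 and 3. WBGene00000698 had 55.7, 7.55 and 11.2 CPM in CDK-2gut(-) libraries 1, 2 and 3, against 84.5, 82.4 and 15.6 CPM in control libraries 1, 2 and 3. In WBGene00000656 the values were 71.6, 11.8 and 16.9 CPM in CDK-2gut(-) libraries 1, 2 and 3, against 72.3, 54.9 and 21.0 CPM in control libraries 1, 2 and 3. In all 3, CDK-2gut(-) library 1 stood several-fold above its 2 fellow libraries, and control library 3 stood well below its own. Their log2 folds were -1.54 ± 1.01, -1.73 ± 0.98 and -1.02 ± 0.78 (SE), with edgeR adjusted p-values of 0.405, 0.327 and 0.479.

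The next members of this kind were WBGene00000675, WBGene00000696 and WBGene00000668. WBGene00000675 had 40.6, 6.12 and 8.25 CPM in CDK-2gut(-) libraries 1, 2 and 3, against 38.4, 31.1 and 15.5 CPM in control libraries 1, 2 and 3. WBGene00000696 had 25.95, 3.50 and 2.48 CPM in CDK-2gut(-) libraries 1, 2 and 3, against 31.4, 33.4 and 9.76 CPM in control libraries 1, 2 and 3. Again CDK-2gut(-) library 1 was the high one of its strain and control library 3 the low one. Without CDK-2gut(-) replicate 1, the log2 folds of these 2 were -2.29 and -3.36 and passed the test (edgeR adjusted p = 0.0132 and 0.0120), against -1.09 and -1.67 with all libraries (edgeR adjusted p = 0.422 and 0.346). WBGene00000668 had 14.99, 3.90 and 6.21 CPM in CDK-2gut(-) libraries 1, 2 and 3, against 29.4, 37.2 and 9.16 CPM in control libraries 1, 2 and 3 (log2 fold -1.99 ± 0.62 SE; edgeR adjusted p = 0.0753).

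The member WBGene00000650 rested on 1 library. It had 2.20, 2.54 and 1.06 CPM in CDK-2gut(-) libraries 1, 2 and 3, against 51.4, 1.13 and 1.39 CPM in control libraries 1, 2 and 3. Control library 1 alone was high. Its log2 fold of -3.66 ± 1.76 (SE; edgeR adjusted p = 0.255) turned to 0.06 without control replicate 1.

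**Figure D4:**
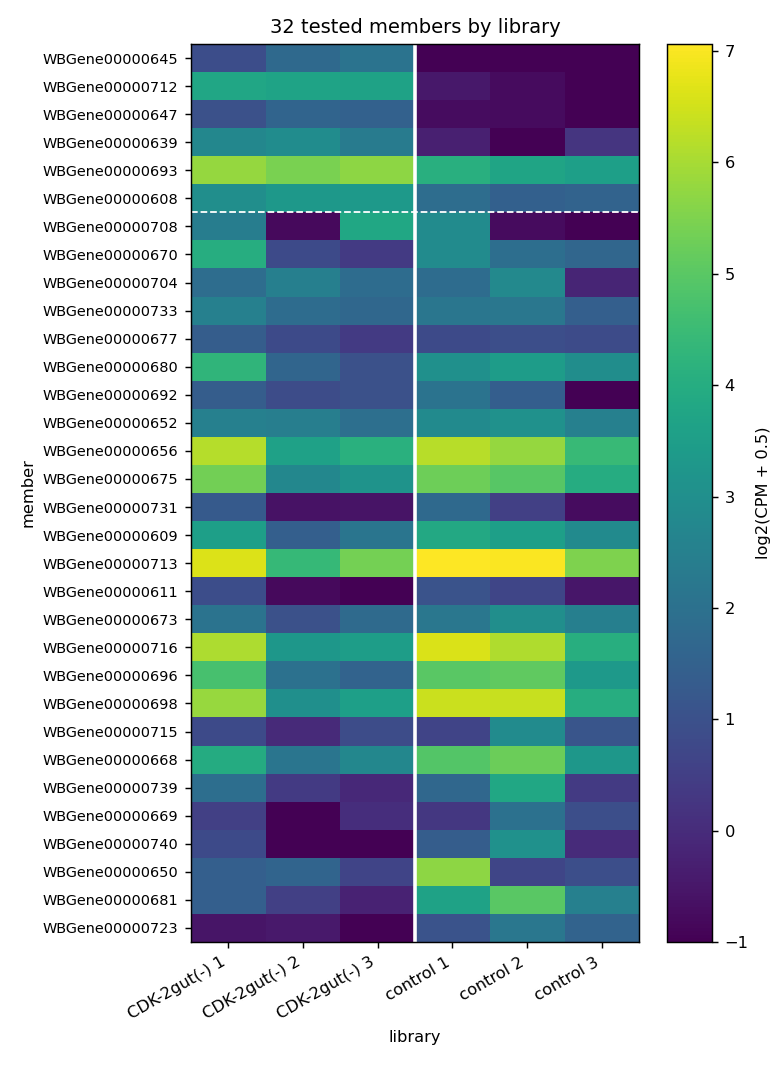
Log2(CPM + 0.5) (colour) of the 32 tested members (rows, ordered by composition log2 fold, highest on top) in the 3 CDK-2gut(-) libraries and the 3 control libraries (columns). The 6 rows above the dashed line are brighter in all 3 CDK-2gut(-) libraries, while WBGene00000713, WBGene00000716, WBGene00000698 and WBGene00000656 are bright in CDK-2gut(-) library 1 and in control libraries 1 and 2.

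The spread between libraries was counted over all 32 tested members. Within CDK-2gut(-), 23 members had their highest CPM in library 1, 5 in library 2 and 4 in library 3. The corresponding shares of all rows tested were 53.2%, 28.1% and 18.7%. Within control, 23 members had their lowest CPM in library 3, 6 in library 1 and 3 in library 2, where 51.7%, 29.5% and 18.9% of all rows did. These were also the libraries in which most rows were highest or lowest, but the other libraries differed. Of the members, 15 were lowest in CDK-2gut(-) library 2, where 29.5% of all rows were lowest, and 17 were highest in control library 1, where 25.1% of all rows were highest. Ties went to the library with the lowest number. WBGene00000645, at 0 counts in all 3 control libraries, was thus counted as both highest and lowest in control library 1. WBGene00000740, at 0 counts in CDK-2gut(-) libraries 2 and 3, was counted as lowest in library 2. The median deviation from the strain mean of log2(CPM + 0.5) was 0.64 in CDK-2gut(-) library 1 for the members and 0.12 for all rows tested, and it was -0.66 in control library 3 for the members and -0.17 for all rows. It was -0.54 in CDK-2gut(-) library 2 for the members and 0.0012 for all rows, and 0.28 in control library 1 for the members and -0.0067 for all rows. The biological coefficient of variation estimated by edgeR had a median of 0.620 over the tested members and of 0.338 over all rows tested. Members and all rows were not matched by abundance for this comparison. What made these libraries differ was not tested.

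**Figure D5:**
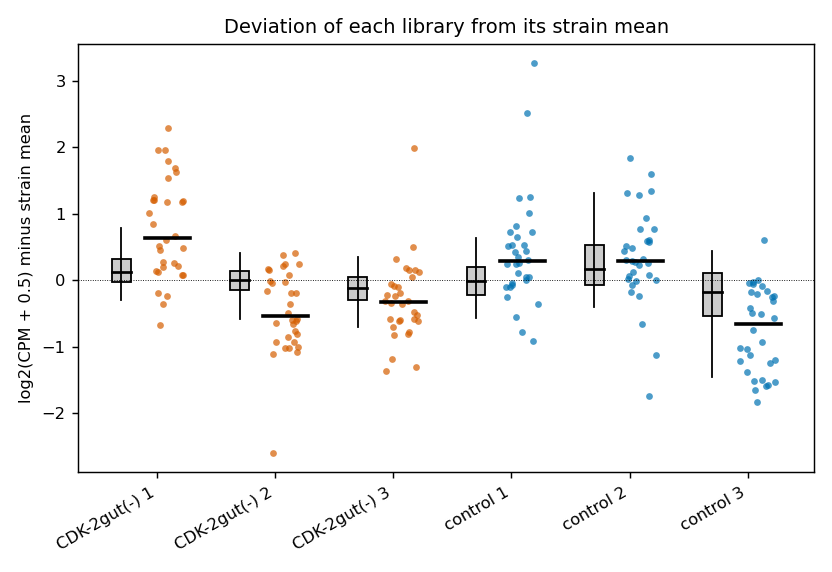
Deviation of each library from its strain mean in log2(CPM + 0.5) (y axis) for the 32 tested members (points, with a thick bar at their median) beside all 8309 rows tested (grey box from the lower to the upper quartile, line at the median, whisker from the 5th to the 95th percentile). Member medians run from -0.54 in CDK-2gut(-) library 2 to 0.64 in CDK-2gut(-) library 1, and from -0.66 in control library 3 to 0.29 in control library 2.

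Over all 6 libraries, 20 of the 32 tested members were highest in control library 1 or 2, with 9 in the first and 11 in the second, where 5.97% and 16.3% of all rows were highest. None was highest in control library 3, where 7.83% of all rows were. In CDK-2gut(-) libraries 1, 2 and 3 the numbers were 7, 2 and 3, where 36.1%, 20.5% and 13.3% of all rows were highest. The members that rose accounted for 6 of these 12 by their selection. Likewise, the 4 members that fell were among the 20 by their selection, all with their highest CPM in control library 2.

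Members with at least 1 count that did not pass the filter numbered 61. The 2 of them with the most counts, chosen after their values were seen, each had most of their counts in control libraries 1 or 2. WBGene00000699 had 6, 0 and 3 counts in CDK-2gut(-) libraries 1, 2 and 3, against 57, 131 and 0 in control libraries 1, 2 and 3. WBGene00000738 had 0, 2 and 4 counts in CDK-2gut(-) libraries 1, 2 and 3, against 127, 0 and 0 in control libraries 1, 2 and 3. Control library 3, at 0 in both, overlapped with CDK-2gut(-). WBGene00000720, the next by counts, did not share this pattern, with 35, 0 and 0 counts in CDK-2gut(-) libraries 1, 2 and 3. In control libraries 1, 2 and 3 it had 0, 27 and 4 counts.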

How the data were processed

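Raw counts per gene were deposited by the authors in 1 table that holds both species. STAR and featureCounts appear in the submitters' processing notes without versions, and the genome build and annotation are not known here. Multi-mapping reads are absent, going by the table's name. Columns were matched to samples by the names in the labels. The boundary between C. elegans and P. pacificus rows was inferred from these counts in earlier work, and all members lie on the C. elegans side. Rows were kept with filterByExpr and tested in edgeR 4.0.16 (R 4.3.3) by robust quasi-likelihood, with Benjamini-Hochberg adjustment over the 8309 rows kept. Library sizes were C. elegans totals with TMM factors (composition fit) or P. pacificus totals with the TMM factors of P. pacificus rows (spike-in fit). The SE is the size of the log2 fold over the root of F. The composition fit was tested on counts simulated from its own means, library sizes and dispersions. Each gene was drawn independently, so shifts shared by members within a library were not simulated. Alternatives were DESeq2 1.42.0, other scalings, other filters, a replicate block and left-out libraries.

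The members, the lists and the rules were chosen with earlier results of these data known. Named were WBGene00000608, every member called in either fit, and the 10 members with the highest mean CPM. Libraries of the same number correlated in their deviations from the strain means over C. elegans rows at 0.085, -0.040 and 0.23 for numbers 1, 2 and 3. The main fits did not take the numbers as pairs. C. elegans counts per P. pacificus count were nevertheless close within a number. They were 5.19, 4.61 and 2.78 in CDK-2gut(-) libraries 1, 2 and 3, against 5.35, 4.51 and 2.78 in control libraries 1, 2 and 3. Whether libraries of a number were prepared together is not stated, and fits with a replicate block are given below. Lists fixed by symbol, of cell type markers and collagen processing genes, were not tested because the table's identifiers were not paired with symbols.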

Additional observations from a re-analysis of the deposited data

How the results depend on the processing

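The cause of the shifts below was not tested. In the composition fit, the 6 members that rose kept their calls with median-of-ratios size factors, plain totals, DESeq2, both other filters, the other species boundary and the replicate block. In the spike-in fit with plain P. pacificus totals, 5 rose. Members called lower in the composition fit numbered 2 with plain totals, 9 with DESeq2 and 10 with no filter, which tested 93 members. Leaving out single libraries gave 2 to 6 higher and 1 to 8 lower in the composition fit, and 5 to 6 higher and 0 to 4 lower with the spike-in. The 8 lower were without CDK-2gut(-) replicate 1, the 2 higher without CDK-2gut(-) replicate 3, and the 0 lower without CDK-2gut(-) replicate 2. Leaving out replicate 1 of both strains, chosen after the data were seen, gave 2 higher and 1 lower in the composition fit, and 3 and 0 with the spike-in. The 1 lower was WBGene00000680, not among the 4 called lower in the main fit. Leaving out replicate 3 of both strains, as planned, gave 5 higher and 3 lower in the composition fit, and 6 and 3 with the spike-in. The composition fit then did not call WBGene00000608 (edgeR adjusted p = 0.114). The 3 lower were WBGene00000681, WBGene00000699 and WBGene00000723 in both fits. With no filter the spike-in fit called 4 lower. The members' median log2 fold was -0.66 with plain totals, -1.75 without replicate 1 of both strains, and -2.13 to -0.75 with single libraries left out. With the replicate block, 6 rose and 3 fell in the composition fit, and 6 rose and 2 fell with the spike-in. The 3 that fell in the composition fit were WBGene00000681, WBGene00000723 and WBGene00000609, while WBGene00000652 and WBGene00000673 were not called. WBGene00000609 was not called in the main composition fit (edgeR adjusted p = 0.151).

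The summed share of C. elegans counts differed by -0.0170 percentage points, CDK-2gut(-) minus control. With single libraries left out, this difference ranged from -0.032 without control replicate 3 to -0.0079 without control replicate 1. As a percentage of C. elegans counts outside the 10 most abundant genes, the sum differed by -0.067 percentage points. As a percentage of P. pacificus counts it differed by -0.084 percentage points. These differences have unlike denominators and cannot be compared in size. Members with at least 10 counts in all 6 libraries numbered 15. Low counts limit the members that rose from few control counts.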
